A study of Homo sapiens with 9 samples.

Results

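Nuclear-encoded respiratory chain genes were taken as the symbols that begin with NDUFA, NDUFB, NDUFC, NDUFS or NDUFV and a digit, with UQCR, with COX4 to COX8 or with ATP5, together with SDHA, SDHB, SDHC and SDHD. Of the 25540 symbols in the expression table, 91 met these patterns; leaving out 1 pseudogene, UQCRBP1, gave 90 genes. Of these, 85 are protein-coding, 3 are noncoding RNAs named after a subunit gene and 2 are read-through genes. The protein-coding genes comprise 36 of complex I, 4 of complex II, 9 of complex III, 19 of complex IV and 17 of complex V. NDUFA4 and NDUFA4L2 were counted with complex IV, where current RefSeq names place them. The table carries older symbols for complex V, so that ATP5G1 is the gene now called ATP5MC1. The patterns also take in 4 genes that are not established subunits (ATP5S, an assembly factor now called DMAC2L, COX7A2L, and the copies UQCRHL and ATP5L2). They miss some subunit genes, among them CYC1, NDUFAB1 and USMG5.

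RNA sequencing had been carried out in CAL-1 cells, an established human line from blastic plasmacytoid dendritic cell neoplasm (BPDCN). This leukemia resembles plasmacytoid dendritic cells, the blood cells known for making type I interferon. KHSRP, an RNA-binding protein with KH domains that speeds the decay of mRNAs with AU-rich sequences, had been silenced by CRISPR interference, in which a catalytically dead Cas9 blocks transcription of the gene to which its guide RNA leads it. The 9 libraries comprised 3 labelled KHSRPi#1 and 3 labelled KHSRPi#2, all with the genotype KHSRP knockdown, and 3 labelled NTC with the genotype WT. The sources used here do not give what the numbers 1 and 2 stand for, the guide sequences, the silencing construct or whether the cells were a clone. All libraries carry the same batch label.

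The respiratory chain of the inner mitochondrial membrane passes electrons from NADH through complex I, or from succinate through complex II, to ubiquinone. Complex III hands them to cytochrome c and complex IV to oxygen. Proton pumping by complexes I, III and IV builds the gradient that complex V, the ATP synthase, uses to make ATP. Complex II is encoded wholly in the nucleus. The others join nuclear-encoded subunits with core subunits from mitochondrial DNA. Of the 13 genes for the latter, 0 were found in the expression table, so they were not analysed here.

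Some subunits are encoded by several genes. Those for the c subunit of ATP synthase, which forms the membrane ring that turns as protons pass, are shown first. Among the members, ATP5G1 of this trio had the smallest p for knockdown against NTC, and whether it was called depended on the fit. ATP5G1 (hg38, chr17:48892787-48895871), ATP5G2 (chr12:53665170-53681423) and ATP5G3 (chr2:175176258-175181710) encode precursors of 136, 141 and 142 residues that end in the same 77 residues. Their import leaders differ. The lines give the 231 coding bases, 5′ to 3′ on the coding strand in GENCODE 29 transcripts, of those shared residues; capitals mark bases that differ from ATP5G1.
ATP5G1: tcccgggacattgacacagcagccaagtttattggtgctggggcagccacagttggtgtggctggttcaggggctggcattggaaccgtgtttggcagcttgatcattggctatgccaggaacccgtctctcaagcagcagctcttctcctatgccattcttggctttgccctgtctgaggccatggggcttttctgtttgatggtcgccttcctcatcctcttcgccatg
ATP5G2: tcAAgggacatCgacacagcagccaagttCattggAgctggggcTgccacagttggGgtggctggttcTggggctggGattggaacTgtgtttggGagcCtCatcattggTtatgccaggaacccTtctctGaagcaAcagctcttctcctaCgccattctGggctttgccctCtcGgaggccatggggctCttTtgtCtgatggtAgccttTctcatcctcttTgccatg
ATP5G3: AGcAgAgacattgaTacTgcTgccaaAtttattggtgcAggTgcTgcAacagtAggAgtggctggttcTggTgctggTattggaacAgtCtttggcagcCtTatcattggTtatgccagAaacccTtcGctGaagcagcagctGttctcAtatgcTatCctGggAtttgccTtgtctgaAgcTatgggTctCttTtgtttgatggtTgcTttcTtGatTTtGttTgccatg
ATP5G2 differed from ATP5G1 at 27 of these bases (88.3% identical) and ATP5G3 at 46 (80.1% identical), although the encoded residues are the same. The longest run of identical bases shared with the ATP5G1 transcript was 17 bases for ATP5G2 and 11 bases for ATP5G3, so that the reference transcripts hold no long identical stretch between them.

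KHSRP mRNA stood at 35.1, 35.1 and 35.1 TPM in the KHSRPi#1 libraries and 35.8, 33.7 and 36.5 TPM in the KHSRPi#2 libraries, against 253, 244 and 216 TPM in the NTC libraries (replicates 1, 2 and 3). TPM, a transcript's length-adjusted share of its library, compares levels between genes. Replicate 3 of each group was set off from replicates 1 and 2: the first principal component held 38.3% of the variance and put them between 12.3 and 14.1, with the other 6 libraries between -8.79 and -3.96. A fit with a term for replicate 3 is therefore given beside the fit without it. Because the term was chosen from these same values, p-values that rest on it may be too small. Of 11 plasmacytoid dendritic cell markers, 9 averaged at least 1 TPM and IL3RA was listed at 0; their summed level was 6660 to 7077 TPM in knockdown libraries and 6155 to 6741 TPM in NTC libraries. Summed markers of T cells, red cells, fibroblasts, epithelium and B cells reached at most 5.32 TPM in any library. NK cell markers, mostly NCAM1, summed to at least 82.5 TPM in every library, and monocyte markers, mostly LYZ, to between 36.9 and 91.0 TPM.

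Respiratory chain transcripts were abundant. Their summed level was 30410 ± 784 TPM in knockdown libraries (SD, n = 6) and 30252 ± 616 TPM in NTC libraries (SD, n = 3). That was 3.04% of the TPM of all listed symbols in knockdown and 3.03% in NTC libraries. The mitochondrially encoded subunits were not found among those symbols. Of the 85 protein-coding genes, 78 averaged at least 1 TPM over the 9 libraries and were tested; their median level was 183 TPM, against 21.2 TPM over all 10939 tested genes. Of the 78, 59 had a mean of at least 100 TPM and 24 a mean of at least 500 TPM. COX7C, a small subunit of cytochrome c oxidase, was the highest, between 2973 and 3462 TPM, and ranked 47th of all symbols. COX7B, ATP5B (the catalytic beta subunit of ATP synthase) and COX4I1 were the others at 1000 TPM or more.

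The listed levels within a complex were far from equal, although its subunits are assembled in fixed numbers. In complex I, NDUFV2, an iron-sulfur subunit of the NADH-binding arm, averaged 975 TPM over the 9 libraries and NDUFC2, a membrane-arm subunit, 7.46 TPM, a ratio of 131. In complex II, SDHB, the iron-sulfur subunit, averaged 184 TPM and SDHC, a membrane anchor, 35.3 TPM, a ratio of 5.21. In complex III, UQCRH, the hinge protein, averaged 991 TPM and UQCRQ 36.1 TPM, a ratio of 27.5. In complex IV, COX7C averaged 3265 TPM and NDUFA4L2 3.96 TPM, a ratio of 824. NDUFA4L2 is a hypoxia-induced relative of NDUFA4 (126 TPM), so that this ratio does not compare subunits of fixed number. In complex V, ATP5B averaged 1550 TPM and ATP5E, the epsilon subunit, 2.46 TPM, a ratio of 630. The library-to-library range was 1.24 to 4.02 TPM for ATP5E and 5.89 to 8.67 TPM for NDUFC2, which do not overlap; NDUFA4L2, at 2.79 to 5.80 TPM, overlaps ATP5E and lies below NDUFC2. The levels of NDUFC2 and ATP5E, and with them the ratios of 131 and 630, are uncertain: the sources used here do not say how reads of short or overlapping transcripts were counted, and each gene has a read-through gene named after it (NDUFC2-KCTD14 and SLMO2-ATP5E) that was listed at 0 in every library.

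**Figure D1:**
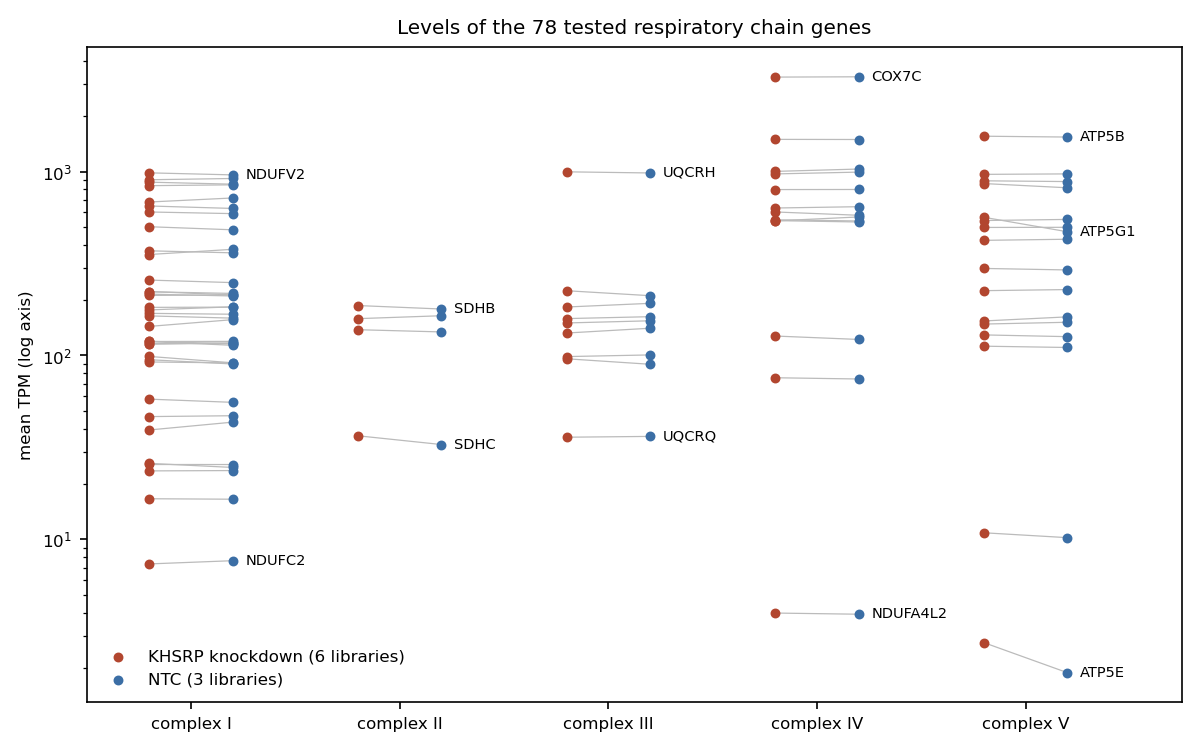
Mean TPM (log axis) of the 78 tested genes by complex, in knockdown libraries (n = 6, left points) and NTC libraries (n = 3, right points), with a line joining the points of a gene. The lines are nearly level for most genes; the highest and lowest genes of each complex and ATP5G1 are named.

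The tissue isoforms of cytochrome c oxidase were listed at 0 in every library. These were COX4I2 (lung), COX6A2 and COX7A1 (heart and skeletal muscle), and COX6B2, COX7B2 and COX8C (testis). Their ubiquitous partners averaged 1011 TPM (COX4I1), 978 TPM (COX6A1), 798 TPM (COX6B1), 538 TPM (COX7A2), 1494 TPM (COX7B) and 548 TPM (COX8A). COX7A2L, a related protein that joins complexes III and IV into supercomplexes, averaged 75.3 TPM. NDUFA4 averaged 126 TPM, against 3.96 TPM for its hypoxia-induced relative NDUFA4L2. In the c subunit trio, ATP5G1 supplied 67.0 ± 1.04% of the summed TPM in knockdown libraries (SD, n = 6) and 62.9 ± 1.03% in NTC libraries (SD, n = 3). ATP5G3 supplied 17.6 ± 0.486% in knockdown and 20.2 ± 1.05% in NTC libraries, and ATP5G2 15.4 ± 0.694% in knockdown and 16.9 ± 0.953% in NTC libraries. UQCRHL, a copy of UQCRH, averaged 93.8 TPM, but the transcripts of both share an identical run of 178 bases, and the sources used here do not say how such reads were divided, so its level is uncertain. Besides the 6 isoforms, ATP5L2 (0.325 to 1.49 TPM) was below the filter. The noncoding RNAs were low (mean 1.71 TPM for NDUFB2-AS1, 1.22 TPM for NDUFV2-AS1 and 0.171 TPM for NDUFA6-AS1). NDUFB2-AS1 and NDUFV2-AS1 passed the filter and neither was called for knockdown in either fit; without a stated strand setting their reads cannot be told from those of the genes they overlap. The read-through genes NDUFC2-KCTD14 and ATP5J2-PTCD1 were listed at 0.

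The median SD within groups, on the log2(TPM + 1) scale, was 0.06 over the 78 genes and 0.10 over all tested genes; among genes with a mean of at least 100 TPM it was 0.06 for 59 members and 0.07 for 1533 genes.

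The comparison of knockdown with NTC libraries asks which genes differ when KHSRP is reduced. Summed by complex, the levels of the groups overlapped. Complex I summed to 9842 ± 214 TPM in knockdown and 9788 ± 208 TPM in NTC libraries, complex II to 520 ± 9.43 TPM in knockdown and 510 ± 16.3 TPM in NTC libraries, and complex III to 2076 ± 59.7 TPM in knockdown and 2070 ± 45.6 TPM in NTC libraries (SD, n = 6 knockdown and n = 3 NTC). Complex IV summed to 10595 ± 400 TPM in knockdown and 10648 ± 297 TPM in NTC libraries, and complex V to 7377 ± 122 TPM in knockdown and 7237 ± 62.1 TPM in NTC libraries. No sum was tested. In bulk RNA, fewer cells of a kind and less RNA per cell cannot be told apart.

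**Figure D2:**
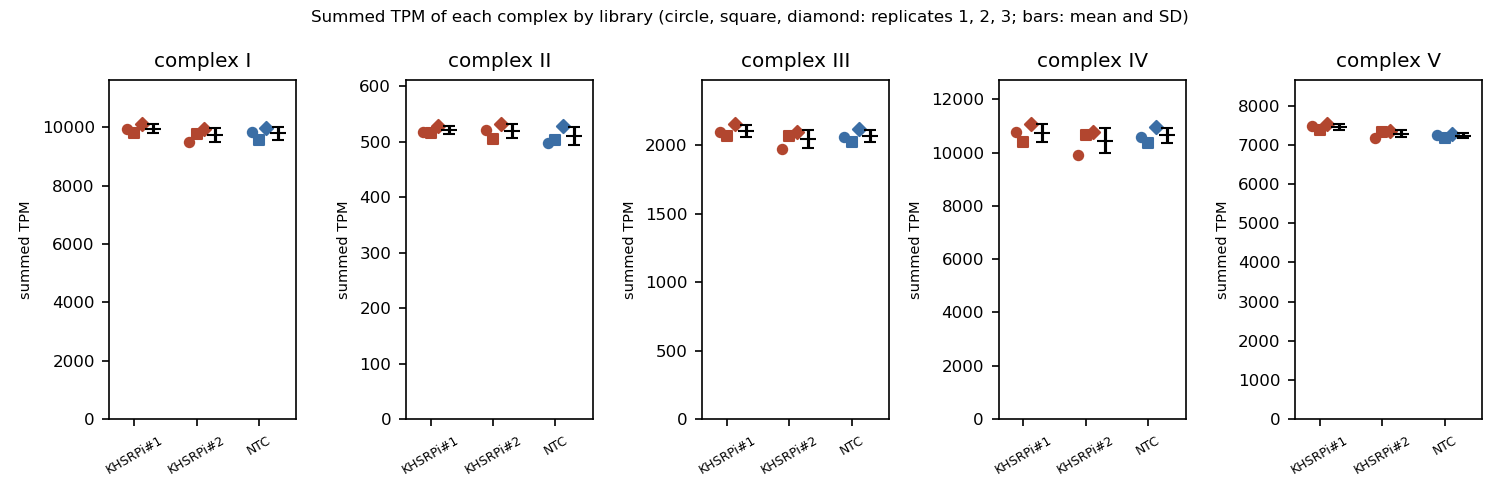
Summed TPM of each complex in every library (vertical axes start at 0; circles, squares and diamonds are replicates 1, 2 and 3; bars are mean and SD, n = 3 per group). The groups overlap in every complex; complex V was 7377 TPM in knockdown and 7237 TPM in NTC libraries.

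Gene by gene, 0 of 78 members passed an adjusted p under 0.05 for the mean of the knockdown groups against NTC, by limma on log2(TPM + 1) with Benjamini-Hochberg adjustment over all 10939 genes. The same held for 9 genes of all tested (0.0823%, KHSRP among them). At an unadjusted p under 0.05 there were 6 members, 3 higher and 3 lower, against 7.93% of all tested genes. Log2 fold changes were above 0 in 43 members and below 0 in 35 (58.3% of all genes were above 0), with a median of 0.01 against 0.02 over all genes. These directions turned with the scaling: after median-ratio rescaling 37 members and 50% of all genes were above 0, with a median of -0.00 over the members. The 95% interval of the log2 fold change lay within 0.2 of 0 for 57 members and within 0.3 for 75, and its median half-width was 0.11.

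In complex I the median log2 fold change was 0.02, from -0.14 (NDUFA11) to 0.11 (NDUFS1, the large iron-sulfur subunit); NDUFA11 is an accessory subunit of the membrane arm. NDUFA11 was at 38.1, 40.0 and 38.7 TPM in KHSRPi#1, 38.4, 41.0 and 40.1 TPM in KHSRPi#2 and 45.7, 40.3 and 44.2 TPM in NTC libraries, and the groups overlapped (adjusted p = 0.560). NDUFS8, an iron-sulfur subunit of the arm that reduces ubiquinone, was at 144, 141 and 142 TPM in KHSRPi#1, 148, 150.2 and 138 TPM in KHSRPi#2 and 163, 154 and 153 TPM in NTC libraries. All 6 knockdown values of NDUFS8 lay below the NTC values (log2 fold change -0.12, SE 0.04, adjusted p = 0.528). NDUFB10, an accessory subunit of the distal membrane arm, was at 350.5, 363 and 360.4 TPM in KHSRPi#1, 357, 343 and 349.6 TPM in KHSRPi#2 and 369.5, 377 and 386 TPM in NTC libraries. Its knockdown values also lay below the NTC values (log2 fold change -0.09, SE 0.03, adjusted p = 0.541).

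In complex II the median was 0.05, from -0.05 for SDHA, the flavoprotein subunit, to 0.15 for SDHC. SDHC was at 34.7, 37.2 and 35.4 TPM in KHSRPi#1, 36.4, 37.8 and 38.1 TPM in KHSRPi#2 and 32.1, 33.5 and 32.8 TPM in NTC libraries. Every knockdown value of SDHC was above every NTC value, and the adjusted p was 0.443 (SE 0.05). In complex III the median was -0.03, from -0.09 for UQCR11 to 0.10 for UQCRHL. In complex IV it was 0.00, from -0.07 for COX8A to 0.06 for COX6C, both structural subunits. In complex V it was 0.01, from -0.07 for ATP5D, the delta subunit of the central stalk, to 0.37 for ATP5E. The ATP5E value had a 95% interval of -0.26 to 1.00, its libraries overlapped, and at 1.24 to 4.02 TPM the log2(TPM + 1) scale understates its change. Besides SDHC, NDUFS8 and NDUFB10, only ATP5G1 had groups that did not overlap, so that this held for 4 of 78 members (5.13%), against 4.67% of all tested genes.

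**Figure D3:**
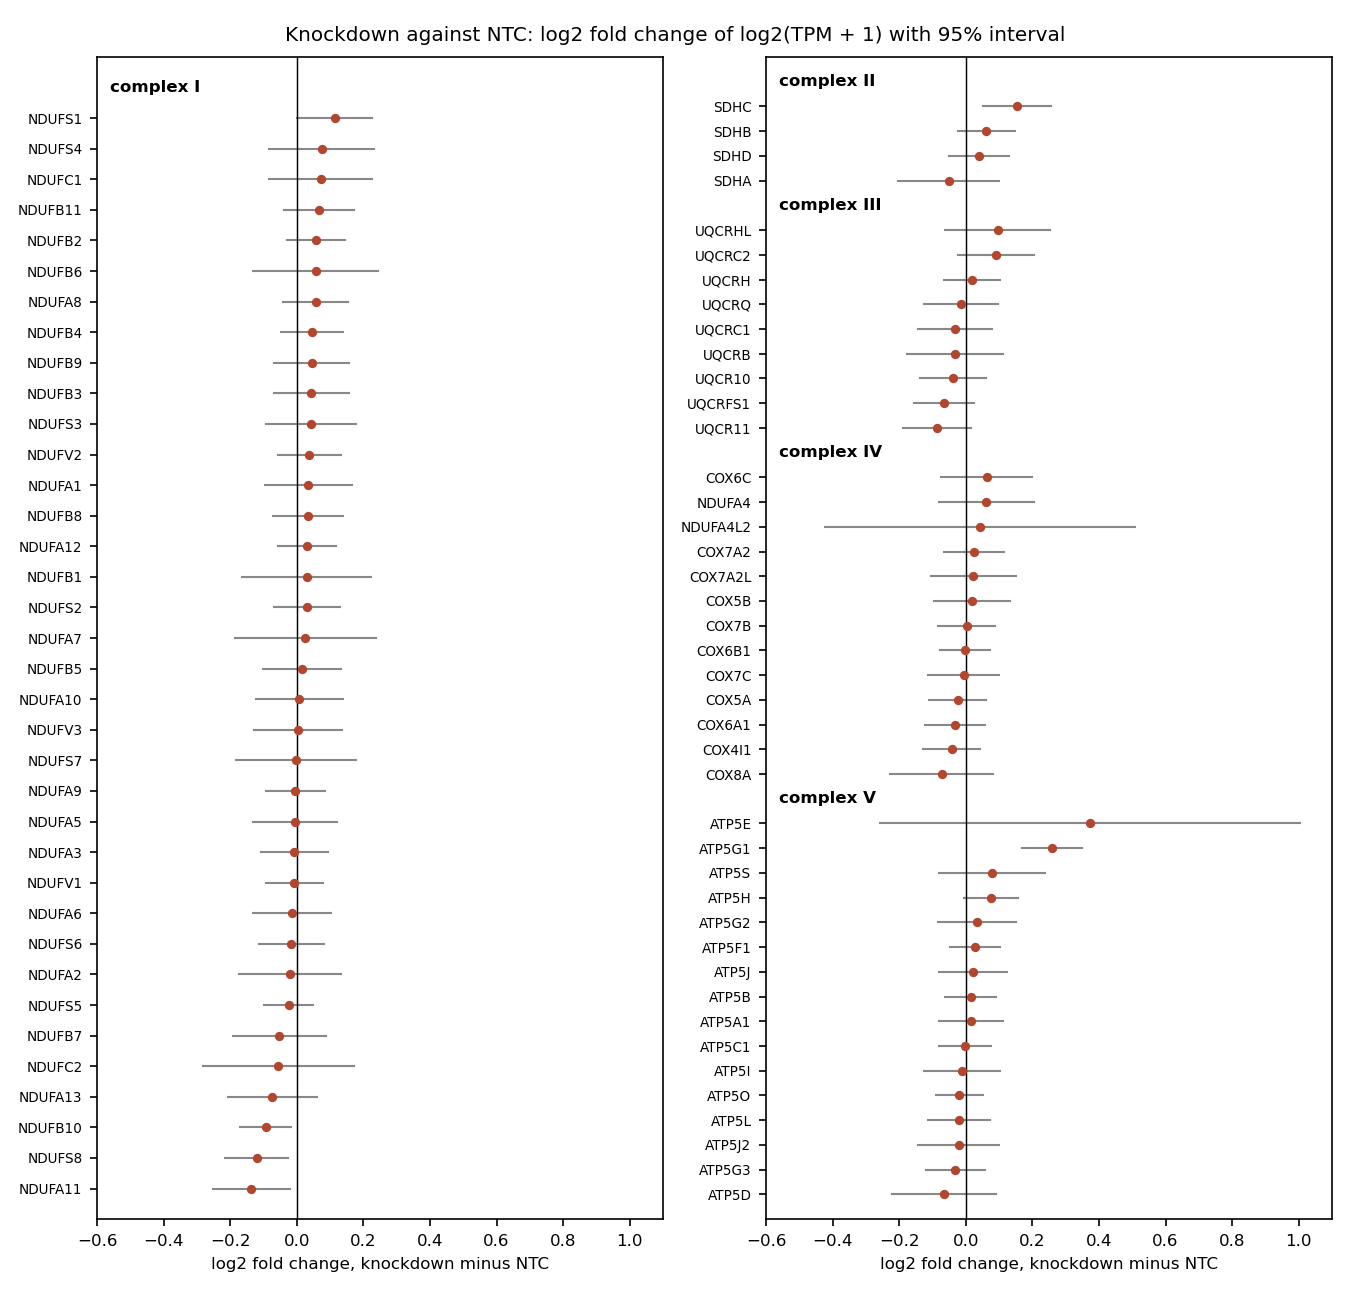
Log2 fold change of log2(TPM + 1), knockdown (n = 6) minus NTC (n = 3), with its 95% interval from limma, for the 78 tested genes by complex. The values run from -0.14 (NDUFA11) to 0.37 (ATP5E), and none of these genes passed an adjusted p under 0.05 in this fit. The intervals are not adjusted. They lie above 0 for 3 genes, ATP5G1 (0.17 to 0.35) among them, and below 0 for 3. An unadjusted p under 0.05 was found for 7.93% of all tested genes.

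ATP5G1 had the smallest p of the members. It was at 555, 596 and 561 TPM in KHSRPi#1 and 556, 581 and 535 TPM in KHSRPi#2 libraries, against 466, 462 and 484 TPM in NTC libraries. Its means were 564 ± 21.4 TPM in knockdown (SD, n = 6) and 471 ± 11.8 TPM in NTC libraries (SD, n = 3), 19.8% higher in knockdown. The lowest knockdown library was above the highest NTC library. The log2 fold change was 0.26 (SE 0.04), with a limma adjusted p of 0.0700, so that it missed the threshold. With the replicate 3 term, which was chosen from these same values, ATP5G1 was called (adjusted p = 0.00473). It was 1 of 78 members (1.28%), against 1.76% of all tested genes. In that fit 9 members had an unadjusted p under 0.05, against 17.5% of all genes. Replicates 1 and 2 alone gave ATP5G1 a log2 fold change of 0.30 and an adjusted p of 0.0527. In the fit with the term, 4 of 9 tested plasmacytoid dendritic cell markers (GZMB, CLEC4C, IRF7 and TCL1A) were called higher in knockdown and 0 lower, and their part in the member values was not tested.

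Over 30 alternative settings the ATP5G1 log2 fold change ranged between 0.24 and 0.30 and the adjusted p between 0.00473 and 0.384, with 13 settings calling it. Leaving out any of the 9 libraries without the replicate 3 term gave adjusted p between 0.0657 and 0.384 and 0 calls. With the term it was called whichever of the 9 was left out (0.0101 to 0.0244). In the same term fit SDHC (adjusted p = 0.0899), NDUFS8 (0.0970), NDUFB10 (0.133), UQCRC2, a core protein of complex III (0.139), and NDUFA11 (0.171) did not pass.

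The other genes for the c subunit did not pass in either fit. ATP5G2 averaged 129 ± 4.33 TPM in knockdown and 127 ± 9.17 TPM in NTC libraries, and ATP5G3 148 ± 2.86 TPM in knockdown and 152 ± 5.80 TPM in NTC libraries (SD, n = 6 knockdown and n = 3 NTC). Their log2 fold changes were 0.03 (95% interval -0.08 to 0.15) and -0.03 (-0.12 to 0.06), both intervals below that of ATP5G1 (0.17 to 0.35). The difference between the 3 genes was not tested. The summed level of the trio was 842 ± 20.6 TPM in knockdown and 749 ± 13.7 TPM in NTC libraries, with no overlap between the groups (814 TPM in the lowest knockdown library and 759 TPM in the highest NTC library).

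**Figure D4:**
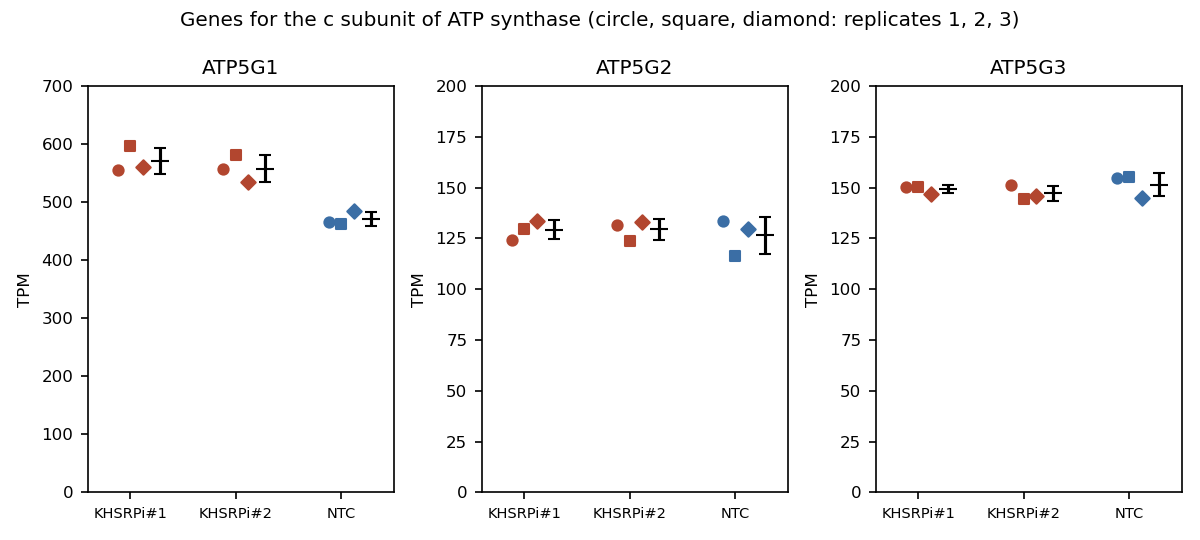
TPM of the c subunit genes in every library (circles, squares and diamonds are replicates 1, 2 and 3; bars are mean and SD, n = 3 per group; vertical axes start at 0 and differ in scale). ATP5G1 lay between 535 and 596 TPM in knockdown and between 462 and 484 TPM in NTC libraries, while the groups overlap for ATP5G2 and ATP5G3.

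The 2 knockdown groups, KHSRPi#1 and KHSRPi#2, share the NTC libraries, so their values are given side by side. Against NTC, KHSRPi#1 had a median log2 fold change of 0.03 over the members, with 55 of 78 above 0 (52.7% of all genes), and KHSRPi#2 a median of 0.00, with 41 above 0 (61.9% of all genes). After median-ratio rescaling 53 members were above 0 in KHSRPi#1 (50.2% of all genes), with a median of 0.02, and 22 in KHSRPi#2 (49.6%), with a median of -0.03. Without the replicate 3 term limma called 0 members in either, against 0.0548% of all genes in each; unadjusted, 5 members had p under 0.05 in KHSRPi#1 (5.24% of all genes) and 3 in KHSRPi#2 (6.93%). Groups did not overlap for 10 members in KHSRPi#1 (9.78% of all genes) and 8 in KHSRPi#2 (11.3%). ATP5G1 had a log2 fold change of 0.28 in KHSRPi#1 and 0.24 in KHSRPi#2 (SE 0.05 each). With the replicate 3 term it was the member called in each group, at an adjusted p of 0.0125 (KHSRPi#1, where 0.676% of all genes were called) and 0.0210 (KHSRPi#2, 0.804%). With the replicate number as a block, ATP5G1 was the 1 member called for KHSRPi#1 against NTC (adjusted p = 0.0183), against 0.494% of all genes.

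Between the knockdown groups, limma called 0 members for KHSRPi#2 minus KHSRPi#1, as it did 0 of all genes (0%). At an unadjusted p under 0.05 there was 1 member of 78, against 1.05% of all genes (3.1% with the replicate 3 term, again 1 member): NDUFS5, an accessory complex I subunit. It was at 855, 893 and 866 TPM in KHSRPi#2 and 956, 905 and 937 TPM in KHSRPi#1 (log2 difference -0.10, 95% interval -0.18 to -0.01). Over the members, 56 of 78 differences were below 0 with a median of -0.03, while 67.0% of all genes were above 0 with a median of 0.03. Most members were also below 0 after other scalings, while the share of all genes above 0 moved. After median-ratio rescaling, which centres all genes near 0, 66 members were below 0 (median -0.06). Over all genes the median was then -0.00, with 49.9% above 0. After quantile normalization 55 members were below 0 (median -0.02), with 51.2% of all genes above 0 (median 0.00). The gap between the medians was about as wide after median-ratio rescaling and smaller after quantile normalization. The median over the members was -0.01 without KHSRPi#2 replicate 1 (43 below 0, 58.5% of all genes above 0), -0.01 without KHSRPi#1 replicate 3 (44 below 0) and -0.04 without KHSRPi#2 replicate 3 (60 below 0). In complexes IV and V, 11 of 13 and 13 of 16 differences were below 0. KHSRPi#2 replicate 1 had the lowest summed level of complexes I, III and IV (9480, 1974 and 9908 TPM). Groups did not overlap for 2 members, NDUFS5 and ATP5F1, a stator subunit of ATP synthase (4.46% of all genes). For ATP5G1 the groups differed by -0.03 (95% interval -0.14 to 0.07).

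The replicate 3 libraries differed from the others in part of the members. This split was chosen because the same values set replicate 3 apart, so calls were likely in advance and the p-values are not calibrated. In replicate 3 against replicates 1 and 2, with the group as a covariate, limma called 18 of 78 members (23.1%), 15 higher and 3 lower, against 30.3% of all tested genes (18.7% higher and 11.6% lower). After median-ratio rescaling 9 members were called higher and 4 lower (1853 and 1894 of all genes), and after quantile normalization 21 higher and 3 lower (1767 and 1896 of all genes). At an unadjusted p under 0.05 there were 27 members, against 41.6% of all genes. The log2 difference was above 0 for 55 members (57.7% of all genes), with a median of 0.04 over the members and 0.03 over all genes. Groups did not overlap for 17 members (27.5% of all genes). By complex, 10 of 36 were called in complex I, 1 of 4 in complex II, 1 of 9 in complex III, 4 of 13 in complex IV and 2 of 16 in complex V. The count rests on 3 replicate 3 libraries. It was 7 without that of KHSRPi#1 (18% of all genes called) and 8 without that of KHSRPi#2 (18%). Without that of NTC it was 9 (16.5%), so that calls fell over all genes as well.

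NDUFB6, an accessory subunit of the complex I membrane arm, was at 245 (KHSRPi#1), 261 (KHSRPi#2) and 228 TPM (NTC) in replicate 3, against 202 to 212 TPM in the other 6 libraries (log2 difference 0.24, SE 0.03). SDHA was at 170.0, 172 and 181 TPM in replicate 3, in the same order, against 147 to 160 TPM in the others (0.18, SE 0.03). UQCRC2 was at 238, 236 and 227 TPM, against 204 to 222 TPM (0.13, SE 0.03). For these 3 genes the replicate 3 libraries did not overlap with the rest. NDUFA4L2 was at 5.59, 4.54 and 5.80 TPM in replicate 3, against 2.79 to 4.23 TPM in the others (0.56, SE 0.11), the widest difference among the members. NDUFS4, whose protein stabilises the NADH-binding arm, differed by 0.18, and NDUFS7, an iron-sulfur subunit beside the ubiquinone site, by 0.20. The 3 lower members were NDUFA4 (-0.14), NDUFS3 (-0.14), a core subunit of the peripheral arm, and NDUFB9 (-0.12). Outside the 78, the noncoding NDUFB2-AS1 was also lower (-0.27, adjusted p = 0.0463). ATP5G1 differed by -0.02 (95% interval -0.10 to 0.06). Of the 9 tested plasmacytoid dendritic cell markers, 5 were called lower and 1 higher in replicate 3, and the monocyte marker LYZ was lower (log2 difference -0.92). Of 3 tested NK cell markers, NCAM1 and GNLY (0.41) were called higher, as was the B cell marker CD79A (0.42). The part of these markers in the member differences was not tested.

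**Figure D5:**
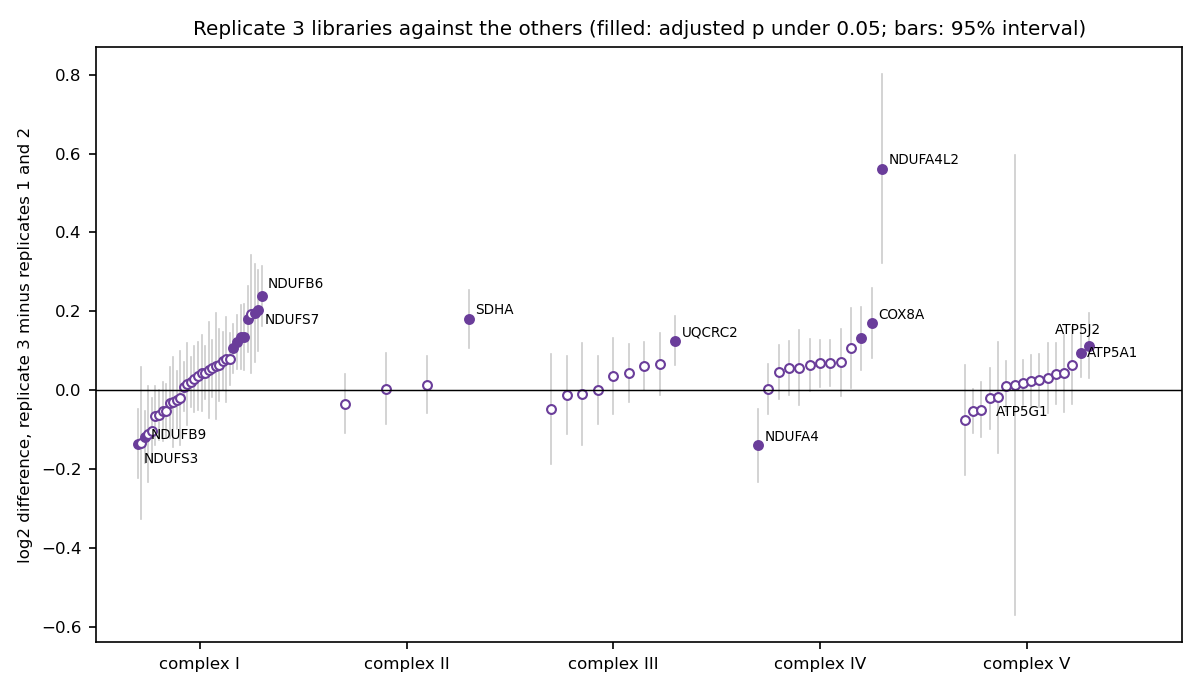
Log2 difference of log2(TPM + 1), replicate 3 (n = 3) minus replicates 1 and 2 (n = 6), with group as a covariate, for the 78 tested genes sorted within each complex; bars are 95% intervals and filled points have an adjusted p under 0.05. Of 18 filled points, 15 lie above 0, and ATP5G1 lies at -0.02.

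Genes that build and supply the chain were read from the same fits. For knockdown against NTC, limma called 0 of 18 complex I assembly factors (median log2 fold change -0.00), 0 of 10 for complexes II and III (-0.03), 0 of 25 for complex IV (0.04) and 0 of 5 for complex V (0.01). It also called 0 of 15 genes of cytochrome c and coenzyme Q synthesis (0.06), 0 of 14 transcription regulators of respiratory genes (0.03) and 0 of 18 tricarboxylic acid cycle genes (0.01). Over all tested genes 0.0823% were called in this fit, so that a count of 0 does not set these lists apart, and the median was 0.02. The most abundant of these were PET100, a complex IV assembly factor, at 592 ± 43.9 TPM in knockdown and 588 ± 10.2 TPM in NTC libraries, and CS, citrate synthase, at 426 ± 17.0 TPM in knockdown and 436 ± 9.59 TPM in NTC libraries (SD, n = 6 knockdown and n = 3 NTC). CYCS, cytochrome c, averaged 148 ± 11.4 TPM in knockdown and 141 ± 11.9 TPM in NTC libraries. The most abundant complex I assembly factor, NDUFAF2, averaged 123 ± 8.19 TPM in knockdown and 138 ± 4.71 TPM in NTC libraries (adjusted p = 0.529). SDHAF4, for complex II, averaged 73.7 ± 15.9 TPM in knockdown and 76.5 ± 29.7 TPM in NTC libraries. It was called higher in replicate 3 (log2 difference 0.66). ATPIF1, the inhibitor of ATP synthase, averaged 62.1 ± 3.10 TPM in knockdown and 61.6 ± 2.78 TPM in NTC libraries. Among the regulators MYC averaged 199 ± 19.9 TPM in knockdown and 200 ± 20.7 TPM in NTC libraries. PPARGC1A, the coactivator PGC-1alpha, was listed at 0 in every library. In replicate 3 against the others, limma called 7 of 18 complex I assembly factors, 4 of 10 for complexes II and III, 7 of 25 for complex IV and 1 of 5 for complex V. It called 5 of 15 genes of cytochrome c and coenzyme Q synthesis, 5 of 14 regulators and 4 of 18 tricarboxylic acid cycle genes. Over all tested genes 30.3% were called in that comparison.

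With the replicate 3 term, 2 of the 105 tested genes of these lists were called (1.9%), near the 1.76% of all tested genes. COX20, a chaperone for a mitochondrially encoded complex IV subunit, was at 32.2, 32.8 and 24.4 TPM in KHSRPi#1, 31.0, 29.5 and 24.7 TPM in KHSRPi#2 and 24.9, 25.2 and 19.2 TPM in NTC libraries (log2 fold change 0.32, SE 0.04, adjusted p = 0.00461). Within replicates 1 and 2, and within replicate 3, its knockdown values were above the NTC values, but the replicate 3 knockdown libraries were below NTC replicates 1 and 2. NDUFAF8, a complex I assembly factor, was at 59.0, 58.8 and 49.7 TPM in KHSRPi#1, 54.2, 53.9 and 46.3 TPM in KHSRPi#2 and 61.5, 63.3 and 54.4 TPM in NTC libraries (log2 fold change -0.15, SE 0.03, adjusted p = 0.0480). Both were lower in replicate 3 (log2 difference -0.35 for COX20 and -0.22 for NDUFAF8), and without the term neither passed (adjusted p = 0.541 and 0.664).

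Promoters were read because nuclear respiratory genes are known to share binding motifs of NRF1, of the ETS factor GABP and of YY1. RefSeq promoter sequences (GRCh38.p14, 250 bases before to 50 after each start) matched 64 of the 78 tested members. The promoter of ATP5G1, under its current symbol, is shown for its difference in knockdown, and that of ATP5I (ATP5ME), a membrane subunit of ATP synthase, because it is the most abundant member with both NRF1 and ETS motifs. Motifs are in capitals, each sequence on the strand of its gene.
ATP5MC1, chr17:48892537-48892836, plus strand: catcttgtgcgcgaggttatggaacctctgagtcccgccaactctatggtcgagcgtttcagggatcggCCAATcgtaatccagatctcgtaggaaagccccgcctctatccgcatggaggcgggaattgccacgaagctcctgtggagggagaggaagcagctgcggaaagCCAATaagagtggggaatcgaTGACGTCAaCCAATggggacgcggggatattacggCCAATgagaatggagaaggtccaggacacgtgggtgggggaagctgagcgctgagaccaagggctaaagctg
ATP5ME, chr4:674227-674526, minus strand: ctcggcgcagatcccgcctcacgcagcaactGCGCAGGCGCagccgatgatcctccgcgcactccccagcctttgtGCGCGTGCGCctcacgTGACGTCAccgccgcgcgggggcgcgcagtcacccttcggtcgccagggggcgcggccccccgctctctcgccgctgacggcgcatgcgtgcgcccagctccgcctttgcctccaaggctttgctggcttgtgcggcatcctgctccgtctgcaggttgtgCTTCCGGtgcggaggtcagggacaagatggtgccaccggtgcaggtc
The ATP5MC1 window holds CCAAT at -181, -78, -48 and -22 bases from the start and TGACGTCA, the cyclic AMP response element, at -57. The last motif was added to the search after this sequence had been seen. The ATP5ME window holds the NRF1 palindrome at -219 and -174, TGACGTCA at -158 and the ETS core CCGGAAG on the opposite strand at 3 bases after the start. A window with 4 or more CCAAT was found for 3 of 64 members (4.69%) and 2.13% of the 8349 tested genes with a promoter. This cutoff equals the count in the ATP5MC1 window, and ATP5MC1 is among the 3, so the shares are a description only.

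Each motif was searched on both strands, and a match is a description of letters, not of binding. A gene was counted if any of its promoter windows held the motif. Members were matched by current symbols, other tested genes only by the symbols of the expression table, so that renamed genes are missing from the latter. The NRF1 palindrome was found for 15 of 64 members (23.4%) and 14.7% of the tested genes, and the ETS core CCGGAAG for 20 (31.3%) and 24.6%. The YY1 core AAGATGGCG was found for 9 (14.1%) and 5.50%. At least 1 of these 3 was found for 37 members (57.8%) and 39.0% of tested genes. Both the NRF1 and the ETS motif were found for 3 (4.69%) and 3.68%. The GC box GGGCGG was found for 62.5% of members and 77.0% of tested genes, and CCAAT for 32.8% and 44.1%. TATAAA was found for 9.38% and 7.74%, and TGACGTCA for 7.81% and 3.99%. The differences in share were not tested.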

How the data were processed

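Gene expression was measured by RNA sequencing of total RNA in 9 CAL-1 libraries, 3 per group; each sample's title gave its group and replicate number. The values are TPM in a single table that the authors deposited, and each column sums to 1000000. Reads were placed on hg38, per the submitters' processing notes. The deposited table is labelled STAR, the name of a read aligner; the sources used here state no version of it, no counting tool, annotation or strand setting, so reads of overlapping or antisense genes cannot be told apart. TPM keeps no read totals, so the depth is unknown, no count model was used and precision rests on the replicates. The labels do not describe replicates as separate cultures; p-values therefore reflect spread between libraries that may be technical. No libraries were identical. The labels do not say what a shared replicate number means, so numbers were taken as pairs only where deviations from the group means correlated above 0.1 in every same-numbered pair of the groups compared. This held for KHSRPi#1 against NTC (0.16 to 0.62) and for KHSRPi#2 against KHSRPi#1 (0.21 to 0.63). It did not hold for KHSRPi#2 against NTC (0.04 in replicate 1) or, with it, both groups against NTC. Replicate 3 stood apart in every group, which alone moves the deviations of replicates 1 and 2 together. Differently numbered libraries were not examined, so the rule cannot show that the numbers are pairs.

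The 10939 genes that averaged 1 TPM or more were tested with limma 3.58.1 (R 4.3.3, trended eBayes, two-sided) on log2(TPM + 1), where 1 is the pseudocount. One fit held all 3 groups without covariates. A second added a term for the replicate 3 libraries, chosen after they were seen to stand apart in these data. Benjamini-Hochberg adjustment ran over all of these genes, and an adjusted p under 0.05 was a call. Only the fit without covariates was tested on simulated data. Those data had independent libraries and no replicate 3 shift, so they do not bear on the fits with the term or the block. Members and lists were chosen with earlier results of these data known; 1 motif was added after a sequence had been seen. Named in each complex are the most and least abundant tested member and those with the highest and lowest knockdown fold change. Also named are members called (with more than 12, the 6 per direction with the smallest p), isoforms of 1 subunit and the smallest p. From other lists, the genes called for knockdown and the most abundant are named. NDUFS8, NDUFB10, NDUFS5, ATP5F1, LYZ, NCAM1, GNLY, CD79A, PPARGC1A and the ATP5I promoter were chosen after their values were seen. As alternatives, the pseudocount was set to 0.1 and 5, and the filter to 5 TPM or none. Robust eBayes, array weights, median-ratio and quantile scaling and a replicate block were also used. So were only the groups compared, replicates 1 and 2 alone, and leaving out each library. For knockdown against NTC, the setting of only the groups compared kept all libraries and pooled KHSRPi#1 and KHSRPi#2 as a single group. Gene positions and promoters are from RefSeq and transcripts from GENCODE 29. Coding sequences were taken as the longest open reading frame. Python 3.11.15, numpy 2.4.6, pandas 2.3.3, Biopython 1.88 and matplotlib 3.10.9 were used.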

Additional observations from a re-analysis of the deposited data

How the results depend on the processing

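The directions of KHSRP, ATP5G1, SDHC, NDUFS8, NDUFB10, NDUFA11 and UQCRC2 held under all 30 alternatives. The count of members called for knockdown against NTC was 1 (ATP5G1) and not 0 in several settings. These were array weights (0.101% of all genes called), the replicate block (1.39%) and the replicate 3 term (1.76%). It was also 1 with only the groups compared, which pooled the knockdown groups (0.119%). With the term it was 1 whichever library was left out (0.302% to 1.85% of all genes). For KHSRPi#1 it was 1 with array weights (0.0823%), the block (0.494%) and the term (0.676%). For KHSRPi#2 it was 1 with the block (0.832%) and the term (0.804%). With the term, KHSRPi#1 and KHSRPi#2 each had 0 to 1 over the left-out libraries. Leaving out a library without the term gave 0 throughout. With the replicate block the adjusted p of ATP5G1 was 0.00694. Of the 9 same-numbered pairs of libraries, 8 deviated together with a correlation above 0.1, and NTC and KHSRPi#2 replicate 1 had 0.04; because of this 1 pair the block was not set beside the results for KHSRPi#2 or both groups against NTC. It changed no call of a member between the knockdown groups. The median log2 fold change of KHSRPi#2 was -0.0291 after median-ratio rescaling, against 0.00. Members called in replicate 3 numbered 29 with array weights (43.9% of all genes called). With a library left out they numbered between 7 and 21 (16.5% to 30.4% of all genes). The cause of these shifts was not tested. Depth in reads is unknown, which limits what can be said of genes near 1 TPM such as ATP5E.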
